A study of Homo sapiens with 183 samples.

Results

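The 10 genes described here are markers of the classical subtype of pancreatic ductal adenocarcinoma (PDAC): the trefoil factors TFF1, TFF2 and TFF3, the protein disulfide isomerases AGR2 and AGR3, the lectin REG4, lysozyme (LYZ), the trypsin inhibitor SPINK1, cathepsin E (CTSE) and the membrane protein VSIG2. The members were taken by name, and all 10 were found among the 19875 gene names in each of the 8 tables of TPM values, the share of a library's transcripts that belongs to each gene after correction for transcript length. Most of these products are secreted, but CTSE is an intracellular aspartic protease and VSIG2 is an immunoglobulin-superfamily protein of the cell membrane, so that the word secreted does not cover every member.

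Trefoil factors are small disulfide-bonded peptides that are secreted with mucus and help to cover and repair the epithelium: TFF1 is typical of the gastric pit, TFF2 of the gastric gland neck and TFF3 of intestinal goblet cells. AGR2 resides in the endoplasmic reticulum, where it assists the folding of mucins, and AGR3 is its close relative. Classical PDAC expresses a gastric-type secretory programme that includes them, whereas basal-like PDAC expresses squamous genes such as TP63 and KRT5.

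RNA sequencing was run on 183 libraries in 59 groups from 9 human cell lines. The PDAC lines were AsPC-1 and SUIT-2 (classical), T3M-4 and BxPC-3 (basal-like) and CFPAC-1, all carrying Cas9 as bulk populations and harvested on day 5 after transduction of guide RNAs against the transcription factor KLF5, the AAA+ ATPases RUVBL1 or RUVBL2, the essential genes CDK1 or RPA3, the chromatin remodeler CHD4 (AsPC-1) or the serpin SERPINB5 (AsPC-1), or of the control guide sgRosa. KLF5, RUVBL1, RUVBL2 and the Rosa control were each targeted with 2 independent guides, and the labels do not tie a library to its guide. For the second arm, AsPC-1 and T3M-4 transduced with a lentivirus for a drug-resistance variant (RUVBL1 A62T or RUVBL2 dF109) or with its empty vector, and parental T84 (colorectal), A375 (melanoma), H1048 (small-cell lung cancer) and RH30 (rhabdomyosarcoma) cells, were treated for 24 h with CB-6644, an inhibitor of the RUVBL1/2 ATPase complex, or with DMSO. The knockout arm held 127 libraries and the drug arm 56. Experiments are numbered as in the library names (AsPC-1 1 to 3, with the separate sgCHD4 set as experiment 4), each group was compared with the sgRosa or DMSO libraries of its own line and experiment, and groups of the same experiment share those controls. The study calls its knockout replicates biological, but the labels do not say whether they were separate cultures, and p-values measure the spread between libraries.

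The 3 trefoil genes lie side by side on chromosome 21 and AGR2 and AGR3 lie 25.98 kb apart on chromosome 7, so that in each cluster 1 stretch of genome carries several members. In GENCODE v44 on hg38, TFF3 spans chr21:42311667-42315409, TFF2 chr21:42346357-42350997 and TFF1 chr21:42362282-42366535, all on the minus strand. AGR2 spans chr7:16791811-16833433 and AGR3 chr7:16859412-16881987, both on the minus strand. REG4 (chr1:119794017-119811580) and CTSE (chr1:206008535-206023909) lie on chromosome 1, SPINK1 on chromosome 5 (147824572-147831671) and VSIG2 on chromosome 11 (124747474-124752255), all on the minus strand, and LYZ lies on chromosome 12 (69348381-69354234) on the plus strand.

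The 250 bases upstream of the RefSeq start (GRCh38.p14) are printed for AGR2, AGR3 and REG4. AGR2 and REG4 had the largest increases after KLF5 knockout in AsPC-1, and AGR3 is the neighbour of AGR2. SPINK1 and CTSE were also in that table, and TFF1, TFF2, TFF3, LYZ and VSIG2 were not looked up elsewhere. KLF proteins bind GC-rich boxes, and capitals mark each match to CCNCNCCC on either strand, a pattern that 52.4% of 27305 promoters of the same length hold. All 3 sequences lie on the minus strand and are written 5′ to 3′.
AGR2, chr7:16805000-16805249: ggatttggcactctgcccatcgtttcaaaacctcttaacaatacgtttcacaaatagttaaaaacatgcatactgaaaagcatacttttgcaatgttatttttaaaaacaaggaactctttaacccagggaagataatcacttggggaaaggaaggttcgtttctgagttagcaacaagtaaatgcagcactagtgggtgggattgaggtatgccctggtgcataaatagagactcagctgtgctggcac
AGR3, chr7:16881984-16882233: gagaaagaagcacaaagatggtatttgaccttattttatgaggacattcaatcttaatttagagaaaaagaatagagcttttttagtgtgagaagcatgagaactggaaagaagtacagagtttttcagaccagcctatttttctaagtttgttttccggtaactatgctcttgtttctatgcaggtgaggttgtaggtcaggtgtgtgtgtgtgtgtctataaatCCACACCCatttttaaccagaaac
REG4, chr1:119811461-119811710: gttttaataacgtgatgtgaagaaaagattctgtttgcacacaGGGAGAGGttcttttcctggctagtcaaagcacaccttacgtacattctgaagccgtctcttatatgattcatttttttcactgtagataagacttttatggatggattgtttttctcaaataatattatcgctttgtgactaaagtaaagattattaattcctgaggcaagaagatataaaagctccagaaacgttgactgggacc
The AGR2 window held no match, and it lies inside the longer GENCODE gene model. AGR3 held 1 match, 17 bases before the start, and REG4 held 1 on the opposite strand, 200 bases before the start. The SPINK1 and CTSE windows held none. The forkhead pattern TGTTTNC, present in 15.6% of promoters, matched AGR3 (94 bases before the start), REG4 (213 bases) and, on the opposite strand, SPINK1 (235 bases), and TATAAA, present in 11.1%, stood 26 bases before the start of both AGR3 and REG4. These matches describe letters and were not tested for binding.

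Libraries held 11292 to 14024 genes at 1 TPM or more; read depth is unknown, since the tables give no counts. A few libraries stood apart from their groups. In CFPAC-1, the library labelled sgRosa replicate 2 correlated less with the other sgRosa libraries (r 0.973 to 0.980 over genes) than with every sgKLF5 library (0.987 or more), and its SERPINB5 level was 59.8 TPM against 169 to 193 in the other sgRosa libraries and 57.6 to 69.3 in sgKLF5. In AsPC-1 experiment 1, sgKLF5 replicate 6 held 60.5 TPM of the squamous keratin KRT5 and 44.9 of KRT14, against at most 1.37 and 0.787 in the other sgKLF5 libraries. T3M-4 experiment 1 sgKLF5 replicate 2 held 11524 genes at 1 TPM or more against 12452 to 12773 in its group, and SUIT-2 sgRosa replicate 1 held 11783 against 12289 to 12616. In CFPAC-1, CDK1 mRNA was 194 to 207 TPM in the libraries labelled sgCDK1, 206 to 236 in sgRosa and 81.0 to 92.0 in the libraries labelled sgRPA3, so that these groups are given here by their labels. RUVBL1, RUVBL2 and RPA3 mRNA lay below all controls in each of their 5, 4 and 6 comparisons and CDK1 mRNA in 3 of 4; KLF5 mRNA did so in 1 of 8 and CHD4 mRNA in 0 of 1, so that mRNA does not check those labels. Leaving out the 4 libraries that stood apart together, an alternative chosen after seeing the data, gave 20 members lower and 11 higher over the sgKLF5 comparisons described below, against 17 and 11 with all libraries.

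Among untreated cells, the members did not follow 1 order of lines. CFPAC-1 held the highest mean of TFF1, TFF2, AGR2, AGR3 and LYZ, T84 of REG4 and SPINK1, BxPC-3 of CTSE and VSIG2, and AsPC-1 of TFF3. Means reached 1 TPM for 8 of 10 members in BxPC-3 and T84, 7 in CFPAC-1, 5 in AsPC-1, 4 in SUIT-2 and T3M-4, 3 in A375 and H1048 and 1 in RH30. Basal-like BxPC-3 thus held more members at that level than classical AsPC-1 or SUIT-2. The summed level of the 10 members in single control libraries was 1658 to 2181 TPM in CFPAC-1, 179.9 to 1016 in T3M-4, 327 to 450 in BxPC-3, 372 to 493 in SUIT-2 and 21.3 to 110.1 in AsPC-1, and AGR2 made up most of it except in AsPC-1. The line labels themselves matched the basal markers: TP63, KRT5, KRT14 and KRT17 summed to 2641 TPM or more in T3M-4 and 8474 or more in BxPC-3, against at most 7.99 in AsPC-1, 1.13 in SUIT-2 and 29.4 in CFPAC-1. The classical markers matched them only in part. HNF4A reached 1 TPM in AsPC-1, SUIT-2, CFPAC-1 and T84 but not in T3M-4 or BxPC-3, whereas GATA6 and ELF3 reached it in all of these lines. The sum of HNF4A, GATA6 and ELF3 in T3M-4 (93.1 to 209.4 TPM) overlapped AsPC-1, SUIT-2 and CFPAC-1, and that in BxPC-3 (81.2 to 102.5) lay below them.

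Levels per gene are given as the mean ± SD over the control libraries of a line (17 for AsPC-1, 9 for T3M-4, 6 for BxPC-3 and 4 for the others). The tables were normalized separately, so that neighbours in each order are compared only by whether their ranges overlap. AGR2, the mucin-folding isomerase, was 1682 ± 150.5 TPM in CFPAC-1, above the range of T84 (701 TPM), which overlapped T3M-4 (631); T3M-4 overlapped SUIT-2 (414) and SUIT-2 overlapped BxPC-3 (283). In AsPC-1 it was only 20.3 ± 16.6 TPM, below all of these. TFF2 was 92.4 ± 29.4 TPM in CFPAC-1, and T3M-4, AsPC-1, BxPC-3 and A375 overlapped at 8.3, 8.27, 6.96 and 5.76 TPM, of which T3M-4 also overlapped SUIT-2 (1.57). TFF1 overlapped between CFPAC-1 (17.8 TPM) and BxPC-3 (15.2), both above T84 (6.59), which lay above AsPC-1 (0.938), and T3M-4 (9.0) overlapped all of them. TFF3 was low everywhere, with its highest mean in AsPC-1 (2.48 ± 1.41 TPM).

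The antimicrobial enzyme LYZ was 95.7 ± 38.3 TPM in CFPAC-1 and 50.0 in T84, whose ranges overlapped, followed by SUIT-2 (24.8), AsPC-1 (15.1) and A375 (10.4), of which only AsPC-1 overlapped both others. REG4, a secreted lectin of intestinal epithelium, was 43.2 ± 1.31 TPM in T84 and 7.6 ± 6.23 TPM in AsPC-1 and at most 1 TPM on average in every other line. AsPC-1 also held 659 to 1235 TPM of the summed intestinal markers CDX1, CDX2 and CDH17, against 547 to 601 in T84. Of these, CDX1 did not reach a mean of 1 TPM in AsPC-1, whereas all 3 did in T84. AGR3 was 26.2 ± 4.66 TPM in CFPAC-1 and 12.7 in T84 and below 1 TPM elsewhere. SPINK1 was 120.0 ± 8.24 TPM in T84, 11.7 in H1048 and 8.49 in CFPAC-1. CTSE was 41.2 ± 19.3 TPM in BxPC-3, above T84 (7.25) and CFPAC-1 (3.02), and VSIG2 was 24.8 ± 3.89 TPM in BxPC-3, above H1048 (2.38) and A375 (1.44).

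Control levels within a line moved between experiments, so that the SDs above hold both kinds of spread. In AsPC-1, mean AGR2 was 3.31 TPM in the DMSO libraries of the drug experiment and 18.6, 15.8, 10.9 and 47.6 TPM in sgRosa of experiments 1 to 4. CTSE in BxPC-3 was 16.4 TPM in experiment 1 and 53.6 in experiment 2, and AGR2 in T3M-4 was 267 TPM in DMSO and 835 and 802 in sgRosa. All changes below are therefore taken within an experiment.

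**Figure D1:**
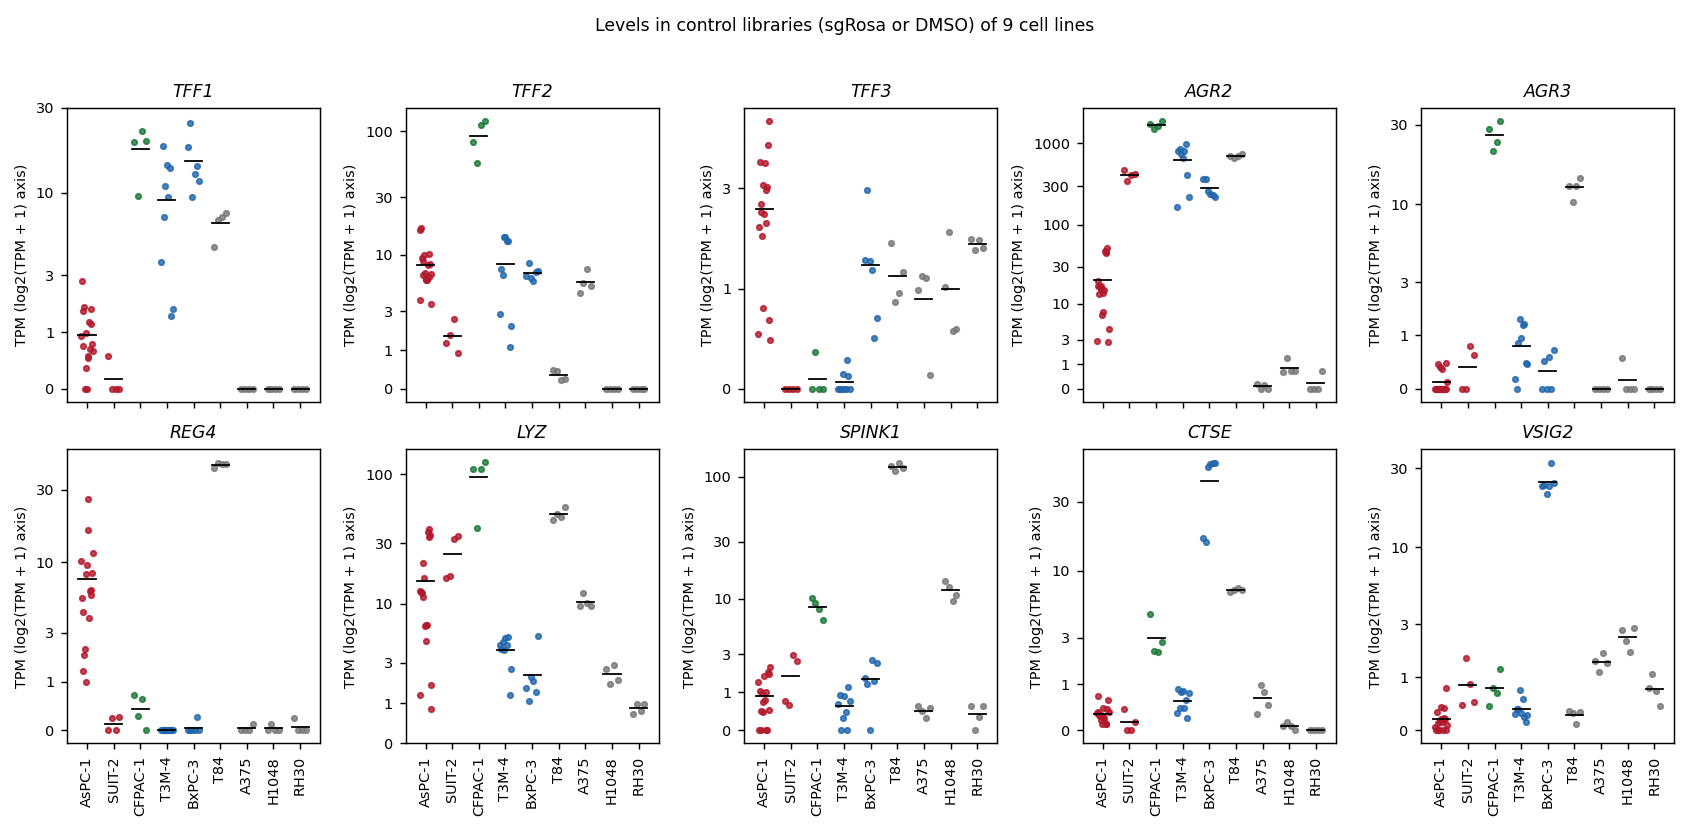
Level of each member in the sgRosa or DMSO libraries of 9 lines, on an axis of log2(TPM + 1); dots are libraries, bars are line means, and colours mark AsPC-1 and SUIT-2 (red), T3M-4 and BxPC-3 (blue), CFPAC-1 (green) and the non-pancreatic lines (grey). AGR2 stands low in AsPC-1 at 20.3 TPM, REG4 is seen in T84 and AsPC-1, and CTSE and VSIG2 are highest in BxPC-3.

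KLF5 is a zinc-finger transcription factor of the gut and pancreatic epithelium, and its knockout addresses which members depend on it in each line. AGR2 rose in BxPC-3, T3M-4 and AsPC-1 and fell in SUIT-2, and REG4 rose in AsPC-1. TFF2 fell in BxPC-3, T3M-4 and AsPC-1 experiment 3 and rose in SUIT-2. LYZ fell in AsPC-1, SUIT-2 and CFPAC-1, and CTSE and VSIG2 fell in BxPC-3. In the 8 comparisons with sgRosa, members reaching a mean of 1 TPM across the libraries fitted gave 50 tests, of which 11 called a higher and 17 a lower level (adjusted p under 0.05), beside 11.8% higher and 8.81% lower among all genes tested. The higher calls include AGR3 and SPINK1 in AsPC-1 experiment 1, which reached that mean only through sgKLF5. The lower calls include TFF2 in AsPC-1 experiment 3, which averaged below 1 TPM in sgKLF5. Each test used limma on log2(TPM + 1) with adjustment over all genes tested, and the added 1 TPM understates changes of low genes. Each library was also left out in turn, and where a call is said to be lost or made without certain libraries, each of them did so when left out alone. In these bulk populations, fewer cells of a type and less RNA per cell cannot be told apart. Whether the lines differed from each other was not tested.

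Counted by line, 4 of 8 members tested were higher and 1 lower in AsPC-1 experiment 1 (17.1% and 8.81% of all genes), and 2 of 6 higher and 2 lower in experiment 3 (15.4% and 12.3%). Of the 4, AGR3 and SPINK1 passed the filter only through sgKLF5, so that they had to differ. SUIT-2 had 1 of 4 higher and 2 lower (2.94% and 1%), and CFPAC-1 had 0 of 7 higher and 2 lower (3.26% and 13%). T3M-4 had 1 of 5 higher in both experiments, with 1 lower in experiment 1 (3.26% and 2.46%) and 2 lower in experiment 2 (23.4% and 11.2%). BxPC-3 had 1 of 7 higher and 4 lower in experiment 1 (8.09% and 8.1%) and 1 of 8 higher and 3 lower in experiment 2 (21% and 13.6%).

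AGR2 was called in 7 of 8 comparisons, 6 higher and 1 lower. In AsPC-1 experiment 1 it was 20.1 and 17.2 TPM in sgRosa and between 507 and 586 (median 526) TPM in sgKLF5. In experiment 3 it was 6.94, 7.61, 14 and 15.1 TPM in sgRosa and 225, 205, 174 and 185 TPM in sgKLF5. Every sgKLF5 library of AsPC-1 stood far above every control, 27.6-fold higher in experiment 1 (log2 difference 4.79 ± 0.08, limma adjusted p = 2.98e-10) and 17.4-fold in experiment 3 (log2 difference 4.12 ± 0.29, limma adjusted p = 2.81e-09). In T3M-4, sgRosa libraries held 806 and 863 TPM in experiment 1 and 741, 666, 820.1 and 981 in experiment 2, against 2221, 2518, 2095 and 2043 and 2204, 2110.0, 1772 and 1830.0 TPM in sgKLF5. The groups did not overlap in either experiment (log2 difference 1.41 ± 0.13, limma adjusted p = 0.00141 in experiment 1, and log2 difference 1.31 ± 0.10, limma adjusted p = 1.49e-08 in experiment 2).

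In BxPC-3, AGR2 was 371 and 372 TPM in sgRosa and 579.9, 594, 611 and 551 in sgKLF5 of experiment 1. The values of experiment 2 were 259, 240.1, 233 and 220.1 TPM and 376, 351, 262 and 289.7. All sgKLF5 libraries lay above all controls (log2 difference 0.65 ± 0.06, limma adjusted p = 7.79e-05 in experiment 1, and log2 difference 0.41 ± 0.11, limma adjusted p = 0.00567 in experiment 2). Rescaled by the median of gene ratios, experiment 2 gave 0.36, adjusted p = 0.0597. In SUIT-2 the order was the opposite, with 473, 351, 413 and 417 TPM in sgRosa and 194, 229, 255 and 193 in sgKLF5, and every sgKLF5 library lay below every control (log2 difference -0.93 ± 0.14, limma adjusted p = 0.00649). With a block for the replicate number, the SUIT-2 value was -0.93 with an adjusted p of 0.0501. In CFPAC-1, where AGR2 is highest, sgRosa held 1711, 1519, 1622 and 1875 TPM and sgKLF5 1673, 1690.0 and 1754 TPM, and the groups overlapped (log2 difference 0.02 ± 0.07, limma adjusted p = 0.846).

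REG4, the other gene with a very large increase, passed the filter in AsPC-1 alone among the lines with a KLF5 knockout. It was 5.57 and 4.41 TPM in sgRosa of experiment 1 and between 235 and 337 (median 271) TPM in sgKLF5. In experiment 3, 8.32, 9.6, 16.4 and 25.9 TPM stood against 250.5, 269.9, 267 and 249.5. The knockout libraries of both experiments reached the same range of 235 to 337 TPM from controls that differed, giving 45.7-fold (log2 difference 5.51 ± 0.14, limma adjusted p = 2.18e-09) and 17.7-fold (log2 difference 4.15 ± 0.33, limma adjusted p = 1.47e-08) increases. The change was larger in experiment 1 (difference of the log2 changes 1.37, limma adjusted p = 0.0261). That call was lost without experiment 1 sgRosa replicate 1 or 2 or experiment 3 sgRosa replicate 3 or 4 (1.08 to 1.51, adjusted p 0.0578 to 0.207). AGR3, next to AGR2 in the genome, was listed at 0 in both sgRosa libraries of experiment 1 and was between 1.34 and 3.1 (median 1.59) TPM in sgKLF5. It passed the filter only through the knockout group, had to differ and is given no fold (log2 difference 1.5 ± 0.22, limma adjusted p = 0.000615). In experiment 3 AGR3 was at most 0.298 TPM in sgRosa and 1.44, 1.89, 2.25 and 2.63 TPM in sgKLF5, but it did not pass the filter. AGR3 did not pass the test in CFPAC-1 or in either T3M-4 experiment.

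TFF2 was lower after knockout in the basal-like lines. In T3M-4 it was 7.52 and 6.67 TPM in sgRosa and 0.569, 1.69, 0.903 and 1.31 in sgKLF5 of experiment 1. Experiment 2 gave 14.1, 14.3, 13.2 and 13 TPM and 3.23, 2.57, 3.19 and 3.0. No library overlapped between the groups (log2 difference -1.96 ± 0.26, limma adjusted p = 0.00613 in experiment 1, and log2 difference -1.87 ± 0.17, limma adjusted p = 1.58e-07 in experiment 2), but the call of experiment 1 was lost without sgRosa replicate 1 or 2 (-2.04 to -1.89, adjusted p 0.087 to 0.107). In BxPC-3 the levels were 6.57 and 8.58 TPM in sgRosa and 2.37, 2.17, 3.2 and 3.39 in sgKLF5 of experiment 1. In experiment 2 they were 6.26, 5.87, 7.15 and 7.31 and 4.99, 3.12, 2.5 and 4.57 TPM. Here too the groups were separate (log2 difference -1.19 ± 0.20, limma adjusted p = 0.00239, and log2 difference -0.70 ± 0.17, limma adjusted p = 0.00445), and the first call was lost without sgRosa replicate 2 (-1.01, adjusted p = 0.051).

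In AsPC-1 experiment 3, TFF2 was 6.97, 5.99, 6.19 and 5.97 TPM in sgRosa and 0.379, 0.955, 1.08 and 0 in sgKLF5, all knockout libraries below all controls (log2 difference -2.24 ± 0.19, limma adjusted p = 2.58e-08). Here sgKLF5 averaged below 1 TPM, so that TFF2 passed the filter through the other groups of the fit. In experiment 1, sgRosa held 16.2 and 16.9 TPM and sgKLF5 replicates 1 to 5 held 1.49, 2.71, 3.88, 4.71 and 4.22 TPM, but replicate 6, the library with squamous keratins, held 25.6 TPM. With it the test was not passed (log2 difference -1.61 ± 0.67, limma adjusted p = 0.109); without it the value was -2.05, adjusted p = 0.000743. In CFPAC-1, sgRosa held 81.9, 55.7, 112 and 120.1 TPM and sgKLF5 71.6, 54.6 and 67.6, which overlapped through the sgRosa replicate 2 that stood apart (log2 difference -0.46 ± 0.20, limma adjusted p = 0.118 with it, and -0.68, adjusted p = 0.00359 without it). SUIT-2 went the other way, with 1.28, 1.64, 2.47 and 0.882 TPM in sgRosa and 4.42, 4.76, 2.76 and 4.97 in sgKLF5. All 4 knockout libraries were higher (log2 difference 1.04 ± 0.24, limma adjusted p = 0.0467). It was lost without sgKLF5 replicate 1, 2, 3 or 4 or sgRosa replicate 2 or 4 (0.90 to 1.19, adjusted p 0.0551 to 0.166) and with a block for the replicate number (adjusted p = 0.216).

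TFF1 fell in 3 of 6 comparisons. In BxPC-3 experiment 1 it was 18.3 and 24.6 TPM in sgRosa and 5.91, 4.61, 4.79 and 8.04 in sgKLF5 (log2 difference -1.73 ± 0.25, limma adjusted p = 0.00101). In T3M-4 experiment 2 it was 10.9, 14.5, 9.39 and 13.8 TPM and 6.08, 4.53, 4.02 and 3.63 (log2 difference -1.24 ± 0.19, limma adjusted p = 6.5e-05). Neither line showed overlap. In CFPAC-1, sgRosa held 19.3, 9.61, 22.5 and 19.7 TPM and sgKLF5 4.85, 5.57 and 12.2, which overlapped (log2 difference -1.17 ± 0.27, limma adjusted p = 0.0106). The call was lost without sgKLF5 replicate 1 or 2 (-1.03 to -0.95, adjusted p 0.0535 to 0.0641). In AsPC-1 experiment 1 no call was made, with 2.74 and 0.685 TPM in sgRosa and between 1.69 and 15 (median 2.78) in sgKLF5 (log2 difference 0.93 ± 0.59, limma adjusted p = 0.287). The other experiments in T3M-4 and BxPC-3 gave no call either. In T3M-4 experiment 1, sgRosa held 18.4 and 7.21 TPM and sgKLF5 3.24, 12.6, 3.42 and 3.1, of which 12.6 was in replicate 2, the library with fewer genes (log2 difference -1.15 ± 0.58, limma adjusted p = 0.242 with it, and -1.57, adjusted p = 0.0064 without it). In BxPC-3 experiment 2, 9.47, 12.8, 14.2 and 11.7 TPM stood against 14.7, 5.95, 9.45 and 14.8 (log2 difference -0.16 ± 0.28, limma adjusted p = 0.693). The change differed between the 2 experiments (difference -1.57, adjusted p = 0.0136). This was lost without experiment 1 sgRosa replicate 2 (-1.36, adjusted p = 0.101). TFF3 passed the test in 0 of 4 comparisons, with 1 at an unadjusted p under 0.05 by limma. In AsPC-1 experiment 1 its difference was 0.75 (adjusted p = 0.0582), and the test was passed without sgKLF5 replicate 1 or 2 (0.82 to 0.86, adjusted p 0.0274 to 0.0473).

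LYZ fell in AsPC-1, SUIT-2 and CFPAC-1. In AsPC-1 experiment 1 it was 12.6 TPM in both sgRosa libraries and between 3.07 and 6.08 (median 4.68) TPM in sgKLF5, and in experiment 3 6.52, 6.66, 4.78 and 6.63 TPM and 1.5, 2.78, 3.68 and 0.971. In SUIT-2 it was 16.1, 16.7, 32.4 and 34.1 TPM in sgRosa and 5.09, 3.99, 4.5 and 5.47 in sgKLF5. Every knockout library lay below every control in these 3 experiments, with log2 differences of -1.27 (adjusted p = 0.000806), -1.22 (adjusted p = 0.000749) and -2.09 (adjusted p = 0.00446). In CFPAC-1, sgRosa held 109, 39.2, 109.8 and 124 TPM and sgKLF5 35.5, 39.1 and 34.4, where the lowest control, 39.2, is the library that stood apart (log2 difference -1.25 ± 0.26, limma adjusted p = 0.00734 with it, and -1.63, adjusted p = 8.2e-09, without it). When the CFPAC-1 fit held only these 2 groups, the adjusted p was 0.0508. In the basal-like lines LYZ was under 6 TPM in every sgRosa and sgKLF5 library and no comparison passed the test.

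CTSE and VSIG2, whose levels are highest in BxPC-3, both fell there. CTSE was 16.9 and 15.9 TPM in sgRosa and 5.0, 3.13, 3.47 and 3.26 in sgKLF5 of experiment 1. In experiment 2 it was 51.1, 53.7, 54.8 and 54.9 TPM and 29.5, 32, 35.2 and 34.2. Groups were separate in both (log2 difference -1.90 ± 0.17, limma adjusted p = 5.52e-05, and log2 difference -0.70 ± 0.08, limma adjusted p = 3.48e-06). The fall was larger in experiment 1 (difference -1.20, adjusted p = 9.33e-06). VSIG2 was 23.5 and 23.7 TPM and 13.9, 11.2, 14.7 and 14.6 in experiment 1. In experiment 2, 21.1, 23.5, 32.4 and 24.4 TPM stood against 8.71, 10.1, 9.9 and 9.77. It was lower in every knockout library (log2 difference -0.76 ± 0.15, limma adjusted p = 0.00535, and log2 difference -1.29 ± 0.10, limma adjusted p = 3.82e-08), and the call of experiment 1 was lost without sgRosa replicate 1 or 2 (-0.77 to -0.76, adjusted p 0.0633 to 0.0674). SPINK1, the trypsin inhibitor, was called higher in AsPC-1 experiment 1, where sgRosa held 0 and 1.04 TPM and sgKLF5 between 0.891 and 3.91 (median 2.95), with overlap (log2 difference 1.34 ± 0.35, limma adjusted p = 0.0175). It too passed the filter only through the knockout group, and it gave no call without sgRosa replicate 1 (0.82, adjusted p = 0.208). The other 4 comparisons that tested SPINK1 made no call, although in AsPC-1 experiment 3 it passed without sgRUVBL2 replicate 2 (0.86, adjusted p = 0.0462).

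**Figure D2:**
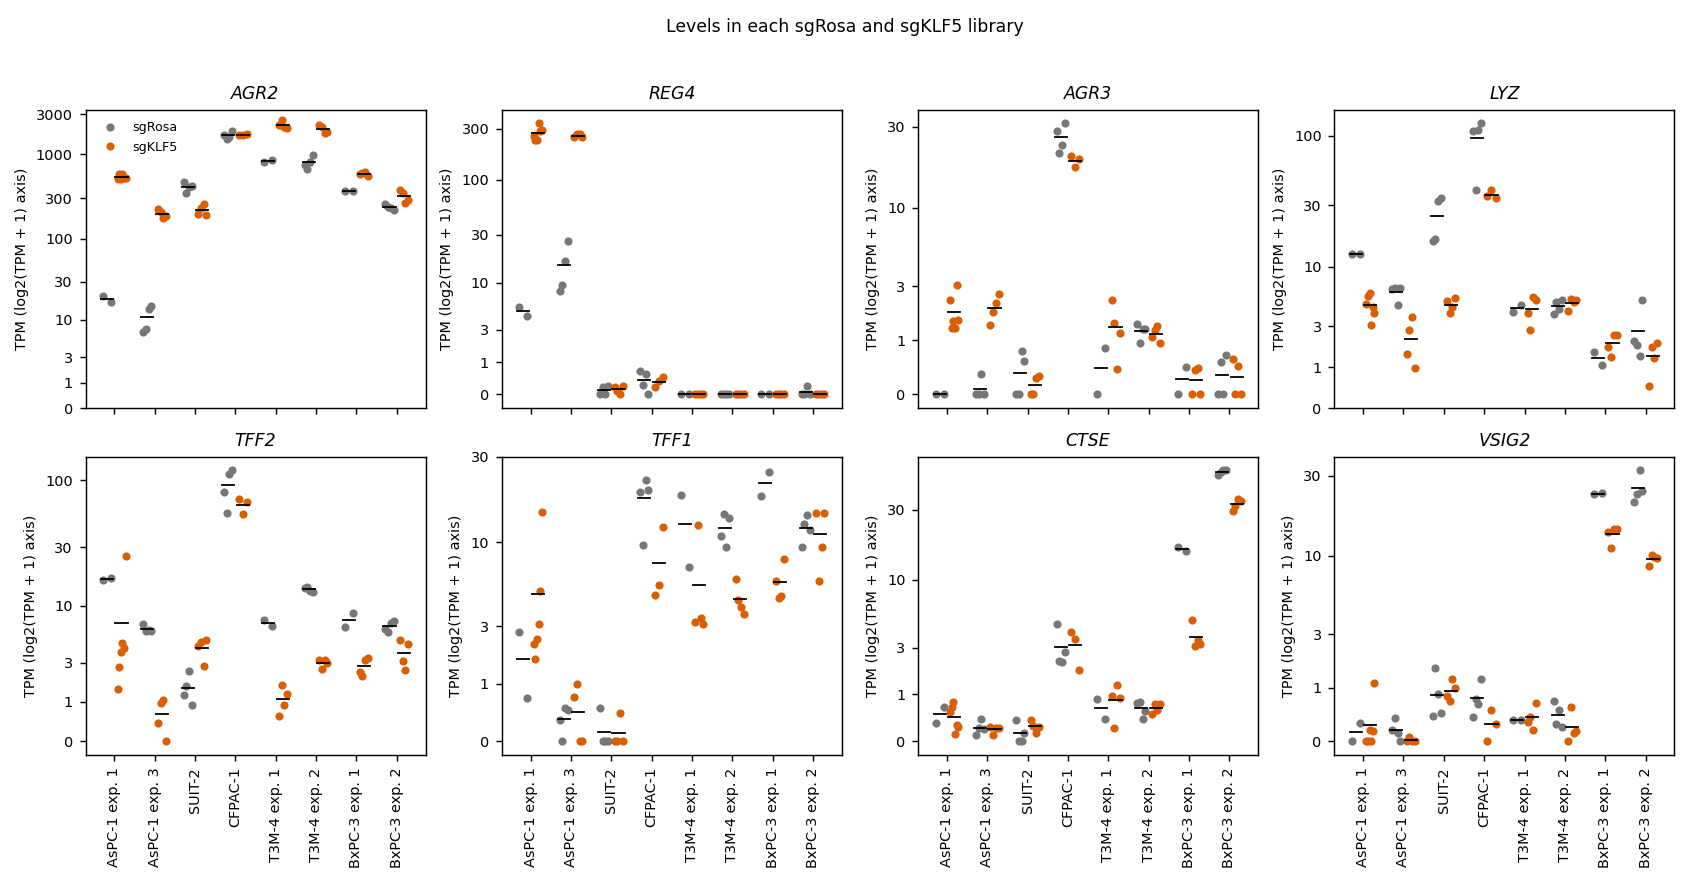
TPM of 8 members in sgRosa (grey) and sgKLF5 (orange) libraries of 8 line and experiment pairs, on an axis of log2(TPM + 1); each dot is a library. AGR2 is higher in sgKLF5 in BxPC-3, T3M-4 and AsPC-1 and lower in SUIT-2. REG4 stands at 235 to 337 TPM in AsPC-1 knockouts, and TFF2 of AsPC-1 experiment 1 shows replicate 6 at 25.6 TPM above the controls.

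Other genes of the secretory programme, from lists chosen with earlier results of these data known, also moved in both directions after KLF5 knockout. Over the 8 comparisons, 19 of 90 tests of regulators were higher and 14 lower, 12 of 45 tests of other secreted products were higher and 13 lower, 5 of 29 tests of classical membrane markers were higher and 13 lower, and 4 of 30 tests of relatives of the members were higher and 8 lower, beside 11.8% and 8.81% of all genes. Among regulators in AsPC-1, where AGR2 and REG4 rose, the forkhead factor FOXA1 rose from 3.54 to 22.1 TPM in experiment 1 (2.36, adjusted p = 1.04e-06) and from 3.5 to 15.1 in experiment 3 (1.83, adjusted p = 3.53e-08). CREB3L1, a transcription factor of secretory cells, rose from 1.62 to 24.5 TPM (3.28, adjusted p = 5.14e-08) and from 4.59 to 13.9 (1.27, adjusted p = 0.00139), and FOXA3 by 1.79 and 1.63. In the same libraries the classical regulators HNF4A and ELF3 fell, HNF4A by 1.06 and 1.49 and ELF3 by 0.86 and 1.37 on the log2 scale.

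Among secreted products, the iron-binding lipocalin LCN2 and the immunoglobulin receptor PIGR rose in the basal-like lines, LCN2 from 106 to 1703 TPM in BxPC-3 experiment 1 (3.98, adjusted p = 2.68e-07) and from 368 to 2968 in T3M-4 experiment 1 (2.97, adjusted p = 0.000672), and PIGR by 2.33 and 2.1 in BxPC-3 and 2.81 and 1.93 in T3M-4. In SUIT-2 LCN2 fell from 1368 to 448 TPM (-1.57, adjusted p = 0.00239), and in CFPAC-1 from 833 to 479 (-0.74, adjusted p = 0.0144). SPINK4, the goblet-cell relative of SPINK1, fell in AsPC-1 experiment 3, SUIT-2, T3M-4 experiment 2 and BxPC-3 experiment 1, by 3.07, 2.35, 1.83 and 3.46 on the log2 scale. The gastric mucin MUC5AC fell in CFPAC-1 from 95.8 to 12.6 TPM (-2.55, adjusted p = 0.00396). Of the membrane markers, TSPAN8 rose in AsPC-1 from 688 to 4790.0 TPM in experiment 1 (2.80, adjusted p = 4.93e-10), while the gastric claudin CLDN18 fell in BxPC-3 by 2.08 and 0.96.

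RUVBL1 and RUVBL2 form a hexameric ATPase that acts in chromatin remodelling and in the assembly of large complexes, and their knockout asks whether members respond as they do to loss of KLF5. Over 9 comparisons with sgRosa, 7 of 58 member tests were higher and 6 lower, beside 23.0% higher and 15.7% lower among all genes. AGR2 fell in AsPC-1 and T3M-4, REG4 fell in AsPC-1 experiment 3, LYZ rose in T3M-4, TFF2 rose in CFPAC-1 and VSIG2 rose in BxPC-3. For sgRUVBL1 the counts were 1 of 6 higher and 2 lower in AsPC-1 experiment 2 (30% and 25.8% of all genes), 0 and 2 of 6 in experiment 3 (36.6% and 15.2%), 1 and 1 of 7 in CFPAC-1 (6.54% and 37.3%), 1 and 1 of 5 in T3M-4 (45.9% and 14.6%) and 1 and 0 of 8 in BxPC-3 (8.29% and 7.67%). For sgRUVBL2 they were 0 and 0 of 6 in AsPC-1 (32.2% and 11%, with 1 member at an unadjusted p under 0.05 by limma), 1 and 0 of 7 in CFPAC-1 (2.83% and 9.26%), 1 of 5 higher in T3M-4 (39.3% and 15.2%), and 1 of 8 higher in BxPC-3 (4.27% and 5.48%).

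In AsPC-1 experiment 2, AGR2 was 13.6, 16.8, 15.7 and 17.2 TPM in sgRosa and 8.47, 9.81, 9.53 and 8.0 in sgRUVBL1, without overlap (log2 difference -0.76 ± 0.10, limma adjusted p = 1.56e-05). In experiment 3 sgRosa held 6.94, 7.61, 14 and 15.1 TPM, sgRUVBL1 3.76, 5.67, 7.33 and 5.95 and sgRUVBL2 12, 13, 4.42 and 4.57. The sgRUVBL1 range overlapped the controls (log2 difference -0.79 ± 0.29, limma adjusted p = 0.028). The test was no longer passed without sgRUVBL1 replicate 1 or 2 or sgRosa replicate 3 or 4 (-0.80 to -0.62, adjusted p 0.0515 to 0.101). The direction for AGR2 was thus opposite to that after KLF5 knockout in the same line. In T3M-4, sgRosa held 741, 666, 820.1 and 981 TPM and sgRUVBL1 639, 604 and 597, below all controls (log2 difference -0.37 ± 0.11, limma adjusted p = 0.00764). The sgRUVBL2 libraries held 746, 620.3, 639.6 and 699 (log2 difference -0.23 ± 0.10, limma adjusted p = 0.0586). That test was passed without sgRUVBL2 replicate 1 or sgRosa replicate 2 (-0.32 to -0.28, adjusted p 0.0126 to 0.0339). In BxPC-3, sgRUVBL1 gave -0.29 (adjusted p = 0.0714). This passed the test without sgRUVBL1 replicate 3 or sgRUVBL2 replicate 3 (-0.35 to -0.29, adjusted p 0.0381 to 0.0421).

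REG4 in AsPC-1 experiment 3 was 8.32, 9.6, 16.4 and 25.9 TPM in sgRosa and 2.56, 3.86, 8.76 and 9.34 in sgRUVBL1, with overlap (log2 difference -1.18 ± 0.33, limma adjusted p = 0.00605). In experiment 2 it was 1.31, 1.9, 2.17 and 0.976 and 2.01, 1.58, 2.96 and 2.37 (log2 difference 0.33 ± 0.18, limma adjusted p = 0.134). The change differed between these experiments (difference 1.51, limma adjusted p = 0.00501). LYZ in T3M-4 was 3.96, 5.06, 4.39 and 5.25 TPM in sgRosa, 10.2, 9.33 and 9.26 in sgRUVBL1 and 11.8, 9.35, 8.69 and 12.4 in sgRUVBL2. Every library of both knockouts lay above every control (log2 difference 0.91 ± 0.23, limma adjusted p = 0.00246, and log2 difference 1.02 ± 0.21, limma adjusted p = 0.000566). In AsPC-1 experiment 2 LYZ was 12.2, 11.4, 20.9 and 16.2 TPM in sgRosa and 11.1, 10.4, 13.2 and 10.2 in sgRUVBL1, with overlap (log2 difference -0.38 ± 0.15, limma adjusted p = 0.043). That call was lost without sgRUVBL1 replicate 1, 2 or 4 or sgRosa replicate 3 or 4 (-0.37 to -0.22, adjusted p 0.0759 to 0.159).

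TFF2 in CFPAC-1 was 81.9, 55.7, 112 and 120.1 TPM in sgRosa, 227, 154, 174 and 161 in sgRUVBL1 and 152 and 162 in sgRUVBL2. Both knockouts stood above every control (log2 difference 0.99 ± 0.18, limma adjusted p = 0.000614, and log2 difference 0.82 ± 0.22, limma adjusted p = 0.0258), and the sgRUVBL2 call was lost without sgRUVBL2 replicate 1 or 2 or sgRosa replicate 1 (0.77 to 0.86, adjusted p 0.0599 to 0.148). In T3M-4 the TFF2 differences were 0.43 (adjusted p = 0.0552) for sgRUVBL1 and 0.23 (adjusted p = 0.274) for sgRUVBL2. They passed the test without sgRUVBL1 replicate 3 or sgRUVBL2 replicate 2 or 4 (0.43 to 0.55, adjusted p 0.0104 to 0.0394) and without sgRUVBL2 replicate 2 (0.44, adjusted p = 0.0115), respectively. In AsPC-1 experiment 3 sgRUVBL2 gave 0.46 (adjusted p = 0.0553) for TFF2. This passed without sgKLF5 replicate 2, 3 or 4 or sgRUVBL2 replicate 2 (0.46 to 0.60, adjusted p 0.0129 to 0.0482). VSIG2 in BxPC-3 was 21.1, 23.5, 32.4 and 24.4 TPM in sgRosa, 33.7, 34.1, 34 and 36.3 in sgRUVBL1 and 39.1, 34.2 and 31.7 in sgRUVBL2. The increase under sgRUVBL1 had no overlap (log2 difference 0.45 ± 0.10, limma adjusted p = 0.00698). That under sgRUVBL2 overlapped the highest control (log2 difference 0.46 ± 0.11, limma adjusted p = 0.0163). It was lost without sgRUVBL2 replicate 1 (0.38, adjusted p = 0.0523).

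AGR3 in CFPAC-1 was 28.5, 21.1, 23.7 and 31.4 TPM in sgRosa and 19.1, 12.3, 21.7 and 14.3 in sgRUVBL1, with overlap (log2 difference -0.62 ± 0.18, limma adjusted p = 0.0101). TFF1 in AsPC-1 experiment 2 was 1.58, 1.71, 0 and 0.987 TPM and 3.39, 3.52, 2.59 and 1.7, also with overlap (log2 difference 0.95 ± 0.29, limma adjusted p = 0.0116). TFF1 in T3M-4 reached a call only when a library was left out, under sgRUVBL1 without sgRUVBL1 replicate 3 (0.61, adjusted p = 0.0242) and under sgRUVBL2 without sgRUVBL1 replicate 3, sgRUVBL2 replicate 2 or sgRosa replicate 2 or 4 (0.44 to 0.54, adjusted p 0.0342 to 0.0444). TFF3, SPINK1 and CTSE gave 0 calls in 5, 6 and 4 tests, with 0, 1 and 1 at an unadjusted p under 0.05 by limma. TFF3 in AsPC-1 passed under sgRUVBL1 in experiment 2 without sgRUVBL1 replicate 2 or sgRosa replicate 4 (-0.69 to -0.67, adjusted p 0.0122 to 0.0189) and in experiment 3 without sgRUVBL2 replicate 2 (-0.68, adjusted p = 0.0147). SPINK1 passed without sgRUVBL1 replicate 4 (0.64, adjusted p = 0.0162) under sgRUVBL1 in CFPAC-1 and without sgRUVBL2 replicate 2 (1.02, adjusted p = 0.0224) under sgRUVBL2 in AsPC-1. By limma, sgRUVBL1 and sgRUVBL2 themselves differed in 0 of 6, 7, 5 and 8 members in AsPC-1 experiment 3, CFPAC-1, T3M-4 and BxPC-3, with 0, 0, 0 and 1 at an unadjusted p under 0.05. Of all genes 3.71%, 0.0235%, 0.0226% and 0.0323% differed. In AsPC-1, SPINK1 differed without sgRUVBL2 replicate 2 (-1.22, adjusted p = 0.0499).

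Compared directly within the same experiments, sgRUVBL1 and sgKLF5 libraries differed in 5 of 6 members in AsPC-1 experiment 3, 2 of them higher in sgRUVBL1 (39.1% of all genes) and 3 lower (19.4%). AGR2 was 5.68 TPM in sgRUVBL1 and 197 in sgKLF5 (log2 difference -4.92 ± 0.29, limma adjusted p = 1.43e-10). REG4 was 6.13 and 259 TPM (log2 difference -5.33 ± 0.33, limma adjusted p = 3.08e-10). TFF2 was the reverse, 7.85 against 0.603 TPM (log2 difference 2.52 ± 0.19, limma adjusted p = 3.05e-09), and it passed the filter through groups other than sgKLF5. LYZ differed by 0.93 (adjusted p = 0.00295), and SPINK1 by -1.06 (adjusted p = 0.0396). The call was lost without sgKLF5 replicate 2, 3 or 4 or sgRUVBL1 replicate 1, 2 or 3 (-1.11 to -0.80, adjusted p 0.0534 to 0.142). TFF3 passed without sgRUVBL2 replicate 2 (-0.60, adjusted p = 0.0252). In T3M-4, 3 of 5 were higher (30.5%) and 1 lower (15.3%): TFF1 by 1.64, TFF2 by 2.31 and LYZ by 0.83, with AGR2 at -1.68 on the log2 scale. In BxPC-3, 3 of 8 were higher (18.8%, with TFF2 0.98, CTSE 0.87 and VSIG2 1.74) and AGR2 was lower (-0.70, with 25.2% of all genes lower). In CFPAC-1, 3 of 7 were higher (10.3%, with TFF1 1.38, TFF2 1.45 and LYZ 1.6) and 0 lower (20.7%).

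After RUVBL1 knockout in T3M-4, 9 of 12 regulators were higher and 2 lower, where 45.9% of all genes were higher and 14.6% lower and rescaling took the higher share of calls from 75.9% to 46.9%, with ELF3 rising from 158 to 418 TPM (1.42, adjusted p = 5.19e-08) and the goblet-cell factor SPDEF from 5.49 to 10.9 (0.91, adjusted p = 0.000138). The secreted products MUC2, PIGR and LCN2 rose with them (MUC2 from 7.64 to 35.2 TPM, 2.45, adjusted p = 0.000538). In AsPC-1 experiment 2, 7 of 9 regulators were lower and 0 higher (25.8% and 30% of all genes), with EHF falling from 158 to 55.9 TPM (-1.48, adjusted p = 5.93e-09), and in experiment 3, 3 of 11 were lower and 0 higher (15.2% and 36.6% of all genes). Whether the lines differed was not tested. In CFPAC-1 MUC5AC fell from 95.8 TPM to 9.78 under sgRUVBL1 (-2.96, adjusted p = 8.8e-05) and 8.77 under sgRUVBL2 (-3.05, adjusted p = 0.00325). AGR2, the isomerase of mucin folding, was 1672 TPM under sgRUVBL1 against 1682 (adjusted p = 0.963). Rescaling took the higher share of calls in that comparison from 14.9% to 53.1%, and AGR2 was then called higher, as given below. Over all 9 comparisons, 21 of 105 tests of regulators were higher and 23 lower, 14 and 12 of 49 for secreted products, 2 and 9 of 32 for membrane markers and 7 and 4 of 33 for relatives (all genes 23.0% and 15.7%).

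CDK1, the kinase that drives mitosis, and RPA3, a subunit of the single-stranded DNA binding complex of replication, are needed by dividing cells and were knocked out in the same experiments. Of 64 member tests in 10 comparisons 9 were higher and 1 lower, beside 6.46% and 3.37% of all genes, and 9 of the 10 calls were lost when 1 library was left out. In T3M-4 experiment 2, LYZ was 3.96, 5.06, 4.39 and 5.25 TPM in sgRosa and 9.66 and 11 in sgCDK1 (log2 difference 1.00 ± 0.26, limma adjusted p = 0.0138). This was lost without sgCDK1 replicate 1 or 2 (0.92 to 1.09, adjusted p 0.0666 to 0.115). AGR2 in sgRPA3 of that experiment was 989.8 and 1065 TPM (log2 difference 0.37 ± 0.12, limma adjusted p = 0.0376). The test was no longer passed without sgRPA3 replicate 1 or 2 or sgRosa replicate 1 or 2 (0.29 to 0.42, adjusted p 0.0822 to 0.217). Left-out libraries also gave calls for AGR2 under sgCDK1, without sgRosa replicate 4 (0.37, adjusted p = 0.0228), and for LYZ under sgRPA3, without sgRPA3 replicate 1 (1.39, adjusted p = 0.000432). Each had 1 of 5 members higher and 0 lower (13% and 3.85% of all genes for sgCDK1, 18.4% and 6.2% for sgRPA3).

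In BxPC-3 experiment 2, 2 of 8 members were higher under sgCDK1 (3.71%) and 3 under sgRPA3 (9.12%), with 0 lower in both (2.12% and 11.6%). VSIG2 was 21.1, 23.5, 32.4 and 24.4 TPM in sgRosa and 44 and 46.4 in sgRPA3 (log2 difference 0.83 ± 0.13, limma adjusted p = 0.000325), a call kept whichever library of the fit was left out. The sgRPA3 libraries of experiment 1 held 24.9 and 20.1 TPM against 23.5 and 23.7 in sgRosa (difference between experiments -0.90, adjusted p = 0.0103, lost without experiment 1 sgRPA3 replicate 2, -0.76, adjusted p = 0.0563). TFF3 under sgCDK1 was 4.54 and 4.01 TPM against 1.42, 1.28, 0.425 and 0.634 (log2 difference 1.48 ± 0.28, limma adjusted p = 0.00358). That call was lost without sgCDK1 replicate 1 (1.41, adjusted p = 0.0798), and TFF3 reached 1 TPM only in the knockout group. AGR2 under sgCDK1 was 312 and 349.5 TPM against 259, 240.1, 233 and 220.1 (log2 difference 0.47 ± 0.13, limma adjusted p = 0.0372). It was lost without sgCDK1 replicate 1 or 2, sgRPA3 replicate 1 or 2 or sgRosa replicate 2, 3 or 4 (0.39 to 0.55, adjusted p 0.0511 to 0.348). Under sgRPA3, CTSE gave 0.32 (adjusted p = 0.0274) and TFF2 0.67 (adjusted p = 0.0336). CTSE was lost without sgRPA3 replicate 1 or 2 or sgRosa replicate 1 or 2 (0.30 to 0.33, adjusted p 0.0507 to 0.17) and TFF2 without sgRPA3 replicate 1 or 2 or sgRosa replicate 1 or 2 (0.59 to 0.75, adjusted p 0.0746 to 0.236). VSIG2 under sgCDK1 passed without sgRUVBL2 replicate 3 or sgRosa replicate 3 (0.42 to 0.54, adjusted p 0.00518 to 0.0308).

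In CFPAC-1, the libraries labelled sgRPA3 had 2 of 7 members higher (8.17%) and 1 lower (3.39%), and those labelled sgCDK1 had 0 of 7 in either direction (0% of all genes, with 1477 of 12748 genes and 1 member at an unadjusted p under 0.05 by limma). AGR2 was 1365 and 1296 TPM under labelled sgRPA3 against 1711, 1519, 1622 and 1875 (log2 difference -0.33 ± 0.08, limma adjusted p = 0.0182). The call was lost without sgRPA3 replicate 1 or 2 (-0.37 to -0.30, adjusted p 0.0945 to 0.206). SPINK1 was 13.8 and 17.6 TPM against 10.1, 9.16, 8.15 and 6.5 (log2 difference 0.82 ± 0.25, limma adjusted p = 0.0445). This was lost without sgCDK1 replicate 1 or 2, sgKLF5 replicate 1 or 3, sgRPA3 replicate 1 or 2 or sgRosa replicate 3 or 4 (0.65 to 0.99, adjusted p 0.0548 to 0.344). TFF2 was 149.9 and 145 TPM against 81.9, 55.7, 112 and 120.1 (log2 difference 0.73 ± 0.22, limma adjusted p = 0.0445). The test was no longer passed without sgCDK1 replicate 1 or 2, sgKLF5 replicate 1 or 3, sgRPA3 replicate 1 or 2, sgRUVBL1 replicate 3 or 4, sgRUVBL2 replicate 1 or 2 or sgRosa replicate 1 or 2 (0.51 to 0.75, adjusted p 0.0508 to 0.224). In AsPC-1 experiment 3 there were 0 calls among 6 members for sgCDK1 (of all genes 10.3% higher and 6.44% lower) and for sgRPA3 (0.638% and 0.0164%), with 1 and 0 members at an unadjusted p under 0.05 by limma. TFF3 under sgCDK1 passed without sgRUVBL2 replicate 2 (1.11, adjusted p = 0.00704). In experiment 1 of T3M-4 and BxPC-3, sgRPA3 gave 0 calls among 5 and 7 members and 0 at an unadjusted p under 0.05 (limma, with 0% of all genes higher in T3M-4 and 0.29% in BxPC-3).

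Set directly against the sgCDK1 and sgRPA3 libraries of the same experiment, sgRUVBL1 libraries held less AGR2 in BxPC-3 (-0.61), T3M-4 (-0.69) and AsPC-1 (-1.40) and more in CFPAC-1 (0.25 on the log2 scale), with limma adjusted p of 0.000593, 9.84e-05, 0.000556 and 0.00646. These comparators had AGR2 calls of their own against sgRosa: -0.33 under labelled sgRPA3 in CFPAC-1, 0.47 under sgCDK1 in BxPC-3 and 0.37 under sgRPA3 in T3M-4. AGR2 under sgRUVBL1 gave no call against sgRosa in CFPAC-1 or BxPC-3. In AsPC-1, 0 of 6 members were higher and 3 lower (32.1% and 19.1% of all genes), the others being REG4 (-1.28, adjusted p = 0.00351) and TFF3 (-1.27, adjusted p = 0.00662). In T3M-4, 1 of 5 was higher and 1 lower (27% and 14.8%), BxPC-3 had 0 of 8 higher and 1 lower (10.9% and 9.56%), and CFPAC-1, by the labels, had 1 of 7 higher and 0 lower (7.74% and 47.7%). The other call in T3M-4 was TFF2 (0.50, adjusted p = 0.0402). That call was lost without sgCDK1 replicate 2, sgRPA3 replicate 2 or sgRUVBL1 replicate 1 or 2 (0.33 to 0.56, adjusted p 0.0568 to 0.235), and LYZ passed there without sgRPA3 replicate 2 (0.45, adjusted p = 0.0188). In CFPAC-1, AGR3 passed without sgRUVBL1 replicate 3 or sgRUVBL2 replicate 1 or 2 (-0.53 to -0.40, adjusted p 0.022 to 0.0366), CTSE without sgRUVBL1 replicate 2 or 4 or sgRosa replicate 1 (-0.74 to -0.59, adjusted p 0.027 to 0.0467) and TFF2 without sgRosa replicate 2 (0.36, adjusted p = 0.0237).

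CHD4 is the ATPase of the NuRD chromatin complex. After its knockout in AsPC-1, 3 of 6 members rose (23.3% of all genes) and 1 fell (26.7%), with LYZ, TFF2 and TFF3 rising and REG4 falling. LYZ was 36.5, 38.5, 33.3 and 34.6 TPM in sgRosa and 69.7, 62.9, 75.4 and 64.8 in sgCHD4 (log2 difference 0.91 ± 0.07, limma adjusted p = 7.79e-07). TFF2 was 8.24, 6.37, 10.1 and 8.33 and 13.2, 17.2, 15 and 16.8 (log2 difference 0.85 ± 0.13, limma adjusted p = 0.000181). TFF3 was 2.15, 3.04, 4.41 and 5.37 and 5.38, 11, 6.99 and 7.65 (log2 difference 0.90 ± 0.23, limma adjusted p = 0.00644). REG4 fell from 3.96, 6.26, 6.41 and 5.91 TPM to 1.09, 0.632, 1.26 and 1.24 (log2 difference -1.69 ± 0.16, limma adjusted p = 4.03e-06). No library overlapped between the groups for these 4 genes. AGR2 was 47.3, 45.2, 45.6 and 52.4 and 52.3, 53, 48.8 and 46.5 TPM (log2 difference 0.07 ± 0.07, limma adjusted p = 0.372). CHD4 mRNA itself was 61.7 to 97.5 TPM in sgCHD4 and 65.1 to 69.2 in sgRosa. Knockout of SERPINB5, a clade B serpin, in AsPC-1 experiment 2 gave 0 calls among 6 members, with 1 at an unadjusted p under 0.05 (limma, with 0.0343% of all genes in either direction).

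Where a knockout was run in 2 experiments of a line, the change itself was compared between them. Of 40 member tests 3 were higher and 3 lower, beside 4.05% and 6.62% of all genes. In BxPC-3 sgKLF5 differed in CTSE and TFF1, as given above, and in VSIG2, where the fall was smaller in experiment 1 (0.53, limma adjusted p = 0.0334, lost without experiment 1 sgKLF5 replicate 3 or 4, experiment 1 sgRosa replicate 1 or 2, experiment 2 sgKLF5 replicate 1 or experiment 2 sgRosa replicate 3, 0.41 to 0.54, adjusted p 0.0588 to 0.124), and 16.7% of all genes differed. REG4 differed in AsPC-1 between the sgKLF5 experiments (6.54% of all genes) and between the sgRUVBL1 experiments (15.7%), and VSIG2 in BxPC-3 between the sgRPA3 experiments (7.77%). In T3M-4 by limma 0 members differed under sgKLF5 (17.4% of all genes) or sgRPA3 (0.107%), with 0 at an unadjusted p under 0.05. AGR3 under sgKLF5 differed without experiment 1 sgKLF5 replicate 3 (1.03, adjusted p = 0.0443).

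The CB-6644 experiment asked whether 24 h of inhibition of the RUVBL1/2 ATPase acts on the members, and the resistance variants whether an effect needs the target. In empty-vector cells, REG4 fell in AsPC-1 and TFF2 fell in T3M-4. TFF2 lay below 1 TPM in every treated empty-vector library of T3M-4 and passed the filter through the other groups. Of 5 members tested, 0 were higher and 1 lower in each line, beside 47.2% and 17.2% of all genes in AsPC-1 and 19.1% and 15.2% in T3M-4. Each line had 1 DMSO library per vector, and the 3 DMSO libraries were pooled as the control. REG4 in AsPC-1 was 8.38, 10.1 and 11.6 TPM in DMSO of the empty, A62T and dF109 vectors, and 5.5, 5.58 and 4.95 in empty-vector cells with CB-6644, 7.38, 7.15 and 7.84 with A62T and 7.22, 7.83 and 8.27 with dF109. All treated libraries lay below all DMSO libraries, and those of empty-vector cells were the lowest (log2 difference -0.79 ± 0.10, limma adjusted p = 3.55e-05 in empty-vector cells, -0.37, adjusted p = 0.0366 with A62T and -0.32, adjusted p = 0.032 with dF109).

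Against empty-vector cells in CB-6644, REG4 was higher with A62T (0.42, adjusted p = 0.00493) and with dF109 (0.47, adjusted p = 0.00271), in 3 of 3 libraries each. The smaller REG4 decreases against DMSO were not kept without every library. The A62T call was lost without A62T CB-6644 replicate 1, 2 or 3, A62T DMSO replicate 1, empty-vector CB-6644 replicate 2, dF109 CB-6644 replicate 1 or dF109 DMSO replicate 1 (-0.40 to -0.27, adjusted p 0.0516 to 0.127), and the dF109 call without A62T DMSO replicate 1, dF109 CB-6644 replicate 1 or 2 or dF109 DMSO replicate 1 (-0.33 to -0.22, adjusted p 0.0748 to 0.121). TFF2 was 6.87, 3.88 and 3.58 TPM in the DMSO libraries and 3.69, 4.98 and 4.12, 4.11, 4.77 and 5.54 and 3.29, 2.22 and 2.23 in CB-6644 with the empty, A62T and dF109 vectors. It was lower with dF109 than in DMSO (log2 difference -0.66 ± 0.19, limma adjusted p = 0.0221, lost without dF109 CB-6644 replicate 2 or 3, -0.59, adjusted p 0.0522 to 0.0833) and than in treated empty-vector cells (-0.56, adjusted p = 0.0294, lost without empty-vector CB-6644 replicate 2 or 3 or dF109 CB-6644 replicate 2 or 3, -0.58 to -0.47, adjusted p 0.0579 to 0.109). In A62T cells 0 of 5 members were higher and 1 lower against DMSO (10.8% and 1.98%), and in dF109 cells 0 and 2 (29.3% and 4.1%). Against treated empty-vector cells the counts were 1 and 0 of 5 with A62T (18.9% and 32.3%) and 1 and 1 with dF109 (20.9% and 26.3%). LYZ in empty-vector AsPC-1 passed without dF109 DMSO replicate 1 (0.46, adjusted p = 0.0161).

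In T3M-4, TFF2 was 1.09, 2.79 and 2.09 TPM in DMSO of the empty, A62T and dF109 vectors. With CB-6644 it was 0, 0.198 and 0.345 TPM in empty-vector cells, 2.45, 3.01 and 2.45 with A62T and 2.1, 1.81 and 1.06 with dF109. The treated empty-vector libraries lay below every other library (log2 difference -1.31 ± 0.22, limma adjusted p = 0.000954 against pooled DMSO), and TFF2 was higher with A62T (1.63, adjusted p = 0.000382) and dF109 (1.16, adjusted p = 0.00475) than in treated empty-vector cells. TFF2 passed the filter through the groups other than treated empty-vector cells, and no fold is given against them. LYZ and TFF1 followed the same order among treated cells. LYZ was 2.53, 1.66 and 1.36 TPM with the empty vector, 4.56, 5.68 and 5.24 with A62T and 4.65, 4.88 and 5.91 with dF109 (1.13, adjusted p = 0.0047 and 1.12, adjusted p = 0.00976 against the empty vector). TFF1 was 0.597, 1.3 and 1.13, 3.53, 3.8 and 4.59 and 3.73, 3.63 and 1.99 TPM (1.32, adjusted p = 0.00221 and 1.02, adjusted p = 0.0138), the dF109 call being lost without dF109 CB-6644 replicate 1 or 2 (0.91 to 0.92, adjusted p 0.0555 to 0.0566). AGR2 was lower with both variants, at 209, 210.4 and 226 and 207, 207 and 229.7 TPM against 302, 337 and 384 (-0.66, adjusted p = 0.0382 and -0.66, adjusted p = 0.0498). The A62T call was lost without A62T CB-6644 replicate 1, 2 or 3, empty-vector CB-6644 replicate 2 or 3 or dF109 CB-6644 replicate 1, 2 or 3 (-0.69 to -0.57, adjusted p 0.0507 to 0.11). The dF109 call was lost without A62T CB-6644 replicate 1, 2 or 3, empty-vector CB-6644 replicate 2 or 3, dF109 CB-6644 replicate 1, 2 or 3 or dF109 DMSO replicate 1 (-0.71 to -0.57, adjusted p 0.0633 to 0.137).

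The single DMSO libraries of T3M-4 differed by vector in the same direction: LYZ was 1.3, 4.38 and 2.6 TPM, TFF1 1.42, 3.69 and 1.67 and AGR2 408, 168 and 224 in DMSO of the empty, A62T and dF109 vectors. TFF2 in T3M-4 and REG4 in AsPC-1, given above, were likewise lowest in the DMSO library of the empty vector, and TFF2 in AsPC-1 was lowest in that of dF109. With 1 DMSO library per vector, a standing difference between vectors and a lost response to the drug cannot be told apart in the comparisons among treated cells. Against pooled DMSO, variant cells were called higher for LYZ with A62T (0.79, adjusted p = 0.0261) and dF109 (0.79, adjusted p = 0.0326) and for TFF1 with A62T (0.67, adjusted p = 0.0475). The LYZ call with A62T was lost without A62T CB-6644 replicate 1, 2 or 3, empty-vector DMSO replicate 1 or dF109 DMSO replicate 1 (0.48 to 0.86, adjusted p 0.0501 to 0.0867). The LYZ call with dF109 was lost without empty-vector DMSO replicate 1, dF109 CB-6644 replicate 1, 2 or 3 or dF109 DMSO replicate 1 (0.48 to 0.85, adjusted p 0.065 to 0.104). TFF1 was lost without A62T CB-6644 replicate 1, 2 or 3, empty-vector CB-6644 replicate 2, empty-vector DMSO replicate 1, dF109 CB-6644 replicate 1 or 2 or dF109 DMSO replicate 1 (0.49 to 0.73, adjusted p 0.0575 to 0.167). Without the empty-vector DMSO library, AGR2 in treated empty-vector cells gave 0.81, adjusted p = 0.00054, LYZ -0.65, adjusted p = 0.0263 and TFF1 -0.83, adjusted p = 0.0293, and without the A62T DMSO library TFF1 in dF109 cells gave 0.67, adjusted p = 0.0233. The counts were 2 of 5 higher and 0 lower with A62T (45.4% and 4.6% of all genes) and 1 and 0 with dF109 (34.3% and 3.34%), and against treated empty-vector cells 3 and 1 with A62T (41.4% and 9.21%) and 3 and 1 with dF109 (29.8% and 4.86%).

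The 4 non-pancreatic lines had 4 DMSO and 4 CB-6644 libraries each, and 50.8% of genes over the 4 comparisons were higher and 26.3% lower. In T84, 1 of 8 members was higher (47.2% of all genes) and 4 lower (24.2%). AGR3 fell from 13, 10.3, 12.9 and 14.5 TPM to 4.89, 5.17, 4.03 and 4.7 (log2 difference -1.26 ± 0.10, limma adjusted p = 1.65e-08), while AGR2 was 694, 668, 700.5 and 742 TPM in DMSO and 746, 746, 718 and 805 in CB-6644, with overlap (log2 difference 0.10 ± 0.04, limma adjusted p = 0.0351). The AGR2 call was lost without CB-6644 replicate 1, 2 or 4 or DMSO replicate 1, 2 or 3 (0.07 to 0.11, adjusted p 0.0554 to 0.128), and with libraries rescaled by the median of gene ratios its sign turned (-0.08, adjusted p = 0.213). REG4 fell from 41.4, 44.5, 43.4 and 43.6 TPM to 31.6, 33.3, 31.3 and 33.8 (log2 difference -0.40 ± 0.05, limma adjusted p = 3.29e-06), LYZ from 44.8, 50.1, 48 and 56.8 to 35.4, 33.7, 37.5 and 38.4 (log2 difference -0.45 ± 0.07, limma adjusted p = 2.26e-05) and CTSE from 7.02, 7.18, 7.5 and 7.28 to 5.0, 5.52, 5.47 and 5.39 (log2 difference -0.38 ± 0.07, limma adjusted p = 0.000246). These 3 had no overlap. SPINK1 and TFF1 passed when a library was left out, SPINK1 without CB-6644 replicate 3 or DMSO replicate 3 (0.15 to 0.17, adjusted p 0.0182 to 0.0421) and TFF1 without DMSO replicate 1 (-0.36, adjusted p = 0.0154).

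In A375, 1 of 3 members was higher (51.5%) and 1 lower (29.7%): TFF2 fell from 4.61, 5.66, 7.49 and 5.3 TPM to 2.43, 2.9, 3.84 and 2.04 (log2 difference -0.84 ± 0.15, limma adjusted p = 0.000342) and VSIG2 rose from 1.47, 1.15, 1.75 and 1.42 to 2.22, 2.6, 1.76 and 2.45 (log2 difference 0.41 ± 0.11, limma adjusted p = 0.00379). In H1048 all 3 members tested were higher (53.9% of all genes higher and 24% lower). VSIG2 rose from 2.7, 2.2, 1.8 and 2.84 TPM to 8.22, 8.2, 7.01 and 5.63 (log2 difference 1.29 ± 0.13, limma adjusted p = 1.41e-06), LYZ from 2.57, 1.79, 2.83 and 1.99 to 10.2, 3.49, 7.48 and 4.91 (log2 difference 1.11 ± 0.23, limma adjusted p = 0.000726) and SPINK1 from 14.1, 12.5, 9.6 and 10.8 to 18.2, 19.5, 20.9 and 20.8 (log2 difference 0.72 ± 0.09, limma adjusted p = 1.91e-05), without overlap. In RH30, 1 of 3 was higher (50.4%) and 0 lower (27.3%): VSIG2 was 0.738, 1.1, 0.669 and 0.375 TPM in DMSO and 2.21, 1.39, 1.17 and 1.52 in CB-6644 and passed the filter only through the treated group (log2 difference 0.58 ± 0.15, limma adjusted p = 0.00326). LYZ passed in A375 without DMSO replicate 2 (0.24, adjusted p = 0.00637) and in RH30 without CB-6644 replicate 4 (0.38, adjusted p = 0.0247), and TFF3 in RH30 without CB-6644 replicate 3 (-0.35, adjusted p = 0.00547). Rescaling by the median of gene ratios moved the median log2 difference of all genes down by 0.18 in T84, 0.21 in A375, 0.20 in H1048 and 0.16 in RH30.

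**Figure D3:**
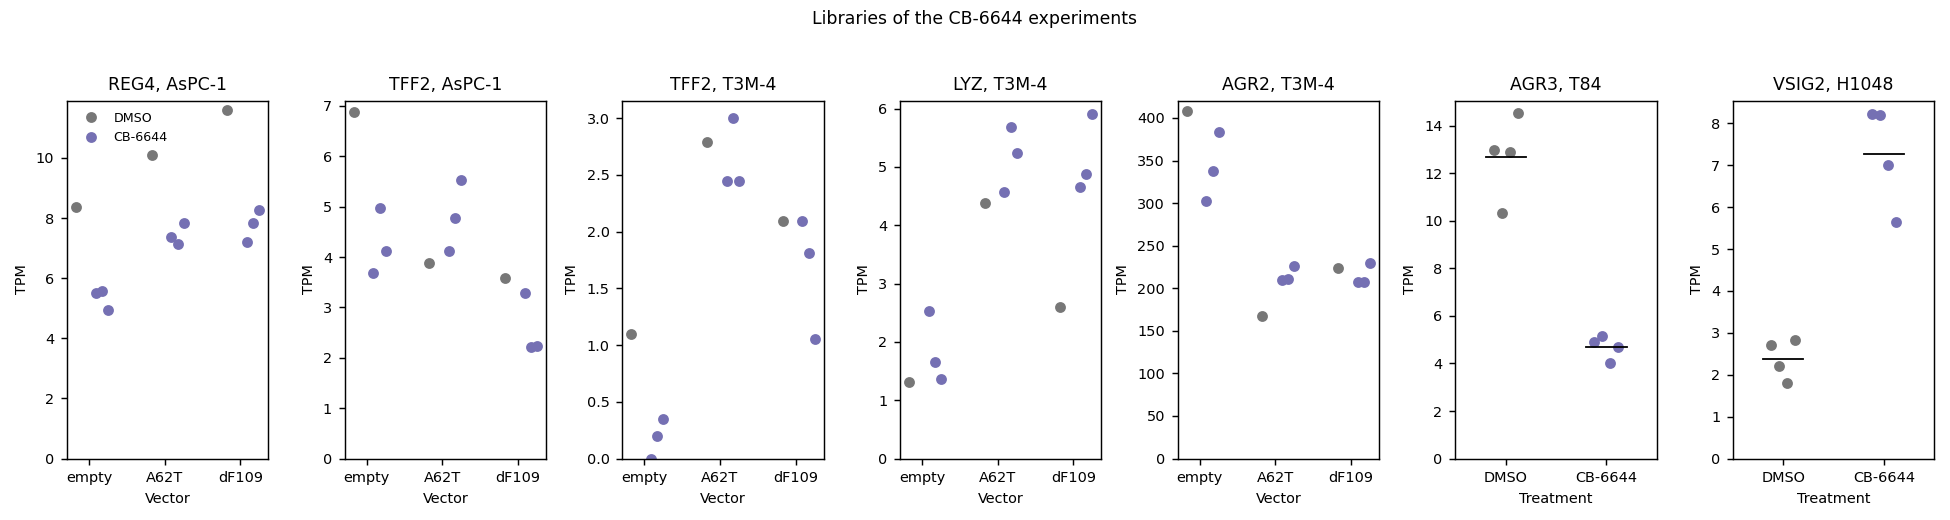
TPM of REG4 and TFF2 in AsPC-1, of TFF2, LYZ and AGR2 in T3M-4, of AGR3 in T84 and of VSIG2 in H1048, on a linear axis. DMSO is in grey and CB-6644 in purple, and each dot is a library. AsPC-1 and T3M-4 are split by empty vector, A62T and dF109. TFF2 in treated empty-vector T3M-4 lies at 0 to 0.345 TPM, below the variant cells, and AGR3 in T84 falls from a mean of 12.7 to 4.70 TPM.

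Other genes of the secretory programme were counted in the same way. After CDK1 or RPA3 knockout 27 of 116 tests of regulators were higher and 1 lower, 12 and 3 of 59 for secreted products, 1 and 7 of 36 for membrane markers and 6 and 1 of 38 for relatives, beside 6.46% and 3.37% of all genes. SPDEF in T3M-4 experiment 2, for example, rose from 5.49 to 13.8 TPM under sgRPA3 (1.23, adjusted p = 0.00021). Rescaling by the median of gene ratios took the higher share of all calls in that comparison from 74.8% to 40.8%. That share also moved by over 10 points for sgCDK1 in T3M-4 and labelled sgRPA3 in CFPAC-1, but not in AsPC-1 or BxPC-3. After CHD4 or SERPINB5 knockout the counts were 2 and 7 of 21, 1 and 2 of 7, 0 and 2 of 5, and 0 and 2 of 6 (all genes 11.8% and 13.5%), with TSPAN8 falling in sgCHD4 from 1283 to 418 TPM (-1.61, adjusted p = 4.92e-10). With CB-6644 in empty-vector cells they were 5 and 10 of 20, 0 and 3 of 8, 1 and 2 of 5, and 3 and 1 of 7 (32.5% and 16.2%), with LCN2 in T3M-4 falling from 792 to 165 TPM (-1.94, adjusted p = 0.00538) and the ETS factor EHF in AsPC-1 from 168 to 58.9 (-1.49, adjusted p = 4.78e-09). Among the regulators called higher, FOXA3 in T3M-4 rose from 1.52 to 5.97 TPM (1.47, limma adjusted p = 1.54e-05). In variant cells the counts were 8 and 2 of 40, 4 and 3 of 16, 1 and 0 of 10, and 1 and 0 of 14 (30.4% and 3.53%). In the non-pancreatic lines they were 9 and 15 of 34, 4 and 2 of 10, 5 and 2 of 9, and 6 and 3 of 13 (50.8% and 26.3%), with XBP1, a factor of the unfolded protein response, falling in A375 from 68.3 to 22.3 TPM (-1.58, adjusted p = 7.57e-11). The regulator CREB3L4 rose in the same line from 13.6 to 29.3 TPM (1.06, limma adjusted p = 3.01e-07).

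**Figure D4:**
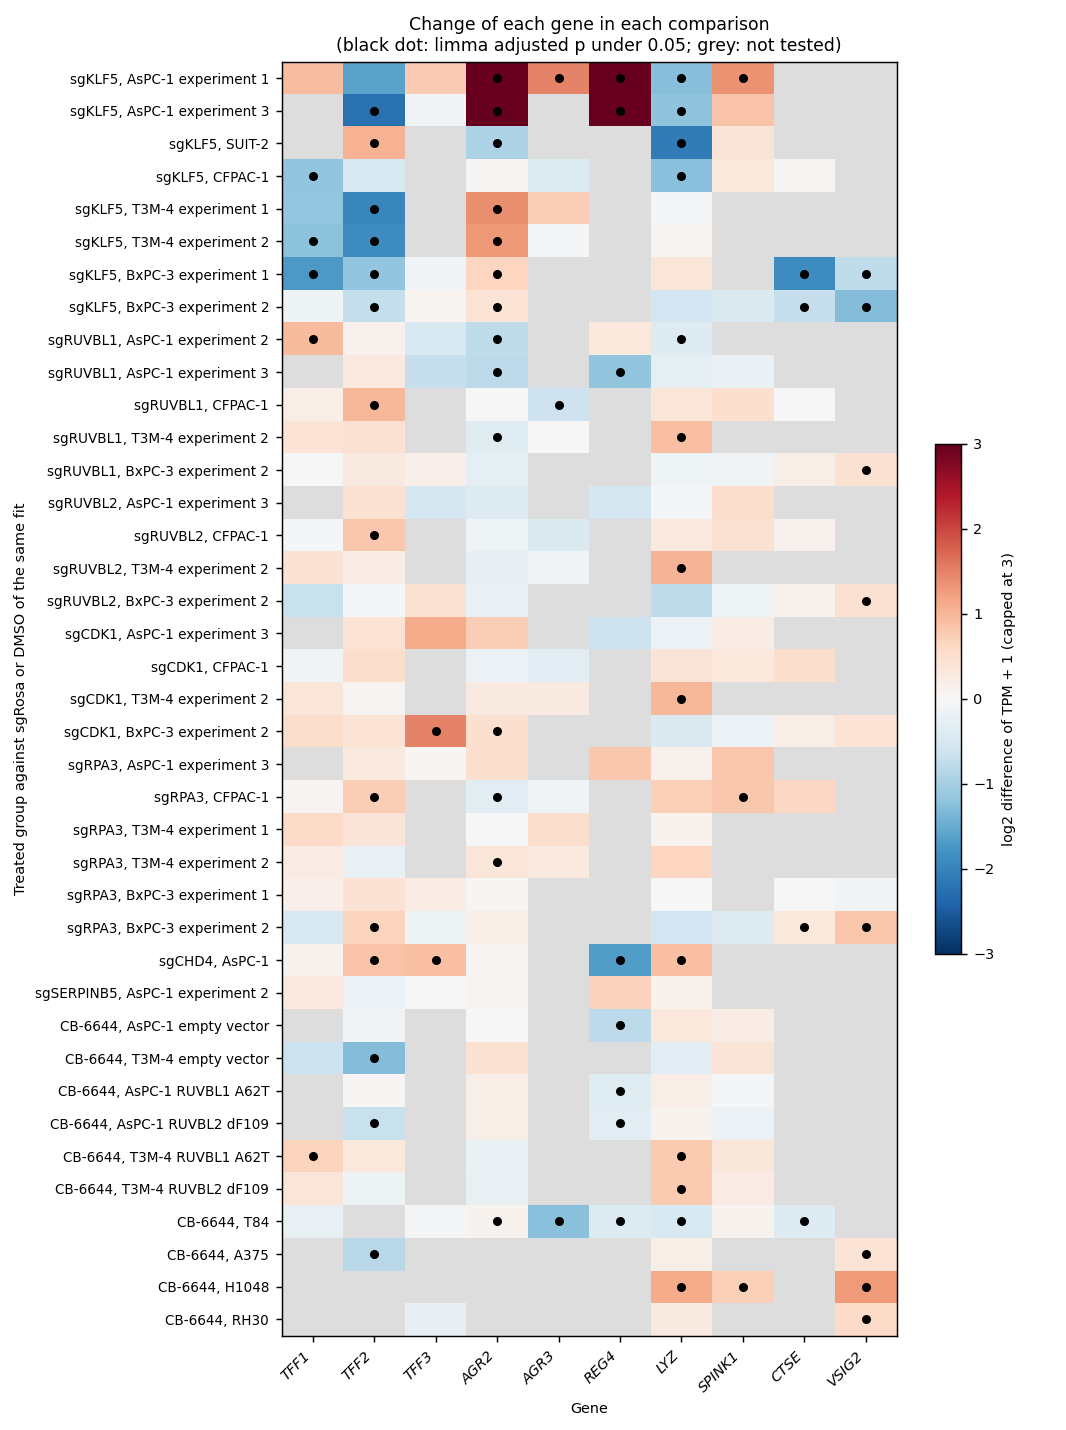
Log2 difference of each member (columns) in the 39 comparisons with sgRosa or DMSO (rows), with colour capped at 3, black dots for a limma adjusted p under 0.05 and grey for members that did not pass the filter. CFPAC-1 groups are shown by their labels. The sgKLF5 rows hold 11 dots for higher and 17 for lower levels, and the red AGR2 and REG4 cells of AsPC-1 stand out.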

How the data were processed

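RNA sequencing was done on human cell lines in 183 libraries. The deposited values are TPM: per the paper's methods and the labels, the authors pseudo-aligned single-end 76-base reads from poly-A libraries to hg38 with kallisto, removed transcripts of low abundance and summarised transcripts to genes. TPM corrects for transcript length and fixes the total of each library, so a rise of abundant genes lowers all others. The tables hold no counts, and read depth is unknown.

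All 8 tables were used, every column was matched to its labels, and all groups of a line and experiment entered 1 fit, which shares their spread. Tests used limma 3.58.1 in R 4.3.3 (empirical Bayes with a mean trend) on log2(TPM + 1), on genes averaging 1 TPM or more across the libraries of a fit, with Benjamini-Hochberg adjustment over all genes tested and a threshold of 0.05. Tables were normalized separately, so tests stayed within a table, except that the change itself was compared between experiments of a line in joint fits. Descriptions used Python 3.11.15 and pandas 2.3.3. On simulated data with 200 changed genes, a log2 change of 1 was recovered in 85% of them for sgKLF5 in AsPC-1 experiment 1, 37.5% in SUIT-2, 94% in T3M-4 experiment 2 and 96.5% for CB-6644 in empty-vector AsPC-1. Of all calls in these simulations, 8.11%, 1.32%, 6.93% and 5.39% fell on unchanged genes, so that the share of false calls could exceed the threshold of 0.05.

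The members and gene lists were chosen with earlier results of these data known. All 10 members are given wherever tested, other genes of the lists are counted and named only past the threshold, and 3 genes most like each member are named by Pearson r over the 9 lines. Same-numbered replicates deviated together (every r over 0.1, 0.104 to 0.293) only for dF109 against empty vector in CB-6644 in T3M-4, where a block for the number changed no call. Alternatives were another pseudocount, other filters, scaling by the median of ratios, fits of only the groups compared, single DMSO controls, a replicate block and leaving out libraries.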

Additional observations from a re-analysis of the deposited data

Results flagged for a closer look

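The values of 1 member in 1 group of 4 to 10 libraries made a set, and 170 sets were examined. In 7 of them, 1 library lay far from the others (Dixon's criterion). By chance about 1 in 20 sets is flagged, or 8.5 here, but sets of the same libraries are not independent. In AsPC-1 experiment 1, sgKLF5 replicate 6 held 14.96 TPM of TFF1 against 1.69 to 5.09 in the other sgKLF5 libraries, and 25.58 TPM of TFF2 against 1.49 to 4.71. The same library held the squamous keratins given above, whose part in these values was not tested. In T3M-4 experiment 1, sgKLF5 replicate 2 held 12.63 TPM of TFF1 against 3.1 to 3.42. In AsPC-1 experiment 3, sgRUVBL2 replicate 1 held 16.27 TPM of REG4 against 7.22 to 7.91 and 8.734 TPM of LYZ against 4.62 to 5.29, and sgRosa replicate 3 held 4.78 TPM of LYZ against 6.52 to 6.66. In BxPC-3 experiment 2, sgRUVBL1 replicate 4 held 36.32 TPM of VSIG2 against 33.7 to 34.1.

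The change after a knockout differed between 2 experiments of a line in 6 tests (limma, adjusted over all genes). For REG4 in AsPC-1 the difference of log2 changes was 1.368 under sgKLF5, experiment 1 minus 3 (adjusted p = 0.0261), and 1.509 under sgRUVBL1, experiment 2 minus 3 (adjusted p = 0.00501). In BxPC-3, experiment 1 minus 2, it was -1.198 for CTSE (adjusted p = 9.33e-06), -1.567 for TFF1 (adjusted p = 0.0136) and 0.533 for VSIG2 (adjusted p = 0.0334) under sgKLF5, and -0.905 for VSIG2 under sgRPA3 (adjusted p = 0.0103).

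Some calls went in opposite directions in different lines, and the difference between lines was not tested. Under sgKLF5, AGR2 was higher by 4.788 and 4.124 on the log2 scale in AsPC-1, 1.406 and 1.311 in T3M-4 and 0.651 and 0.4112 in BxPC-3, and differed by -0.9252 in SUIT-2. TFF2 differed by 1.039 in SUIT-2 and by -2.24 in AsPC-1 experiment 3, -1.962 and -1.874 in T3M-4 and -1.185 and -0.7037 in BxPC-3. AGR2 under sgRPA3 differed by 0.3707 in T3M-4 experiment 2 and by -0.3339 in the CFPAC-1 libraries so labelled. LYZ with CB-6644 differed by 1.115 in H1048 and -0.4477 in T84. Some of these calls were lost when single libraries were left out, as given above. They were TFF2 in SUIT-2, T3M-4 experiment 1 and BxPC-3 experiment 1, and AGR2 under sgRPA3 in T3M-4 and CFPAC-1. A block for the replicate number also ended the sgKLF5 calls of AGR2 and TFF2 in SUIT-2.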

How the results depend on the processing

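Of 114 member calls, 109 kept their direction and stayed past the threshold with a pseudocount of 0.1, 96 with no filter on low values, 88 with a minimum of 5 TPM (the rest were not tested), 100 with libraries scaled by the median of ratios and 98 with only the groups compared in the fit. With no filter, members changed after CDK1 or RPA3 knockout came to 5 higher and 2 lower, with CB-6644 in empty-vector cells 2 higher, in variant cells 1 lower, and among treated variant against treated empty-vector cells 1 lower. With a minimum of 5 TPM, fewer genes tested left 0 lower after CHD4 or SERPINB5 knockout, 1 lower with CB-6644 in empty-vector cells, 0 higher in variant cells, 2 higher in non-pancreatic lines and 2 higher among treated variant cells. Scaling left 4 higher after CDK1 or RPA3 knockout and 0 higher in variant cells with CB-6644, and the cause was not tested. It turned AGR2 in T84 with CB-6644 to -0.08482 (adjusted p = 0.213) and AGR2 in CFPAC-1 under sgRUVBL1 to 0.217 (adjusted p = 0.0488), and it shifted the median log2 difference of all genes by over 0.1 in 21 of 39 comparisons, from -0.23 to 0.35. In 26 of 39 it moved the share of higher calls by over 10 points, for example from 66.0% to 50.2% for sgKLF5 in AsPC-1 experiment 1, from 20.1% to 55.0% in CFPAC-1 and from 90.8% to 35.6% for CB-6644 in T3M-4 with A62T. With only the groups compared, and so fewer samples, there were 0 lower after CDK1 or RPA3 knockout and 0 higher and 0 lower in variant cells. Against the DMSO library of the same vector alone, CB-6644 gave 1 higher in empty-vector cells and 1 higher and 1 lower in variant cells. LYZ and TFF1 in T3M-4 with A62T then came to 0.19 (adjusted p = 0.631) and 0.08 (adjusted p = 0.887), and in AsPC-1 REG4 with A62T to -0.39 (adjusted p = 0.155) and TFF2 with dF109 to -0.37 (adjusted p = 0.15). With a replicate block, for numbers that were only shared, there were 17 lower and 11 higher after KLF5 knockout, 6 and 9 after RUVBL1 or RUVBL2 knockout and 0 and 6 after CDK1 or RPA3 knockout. The replicate block ended the calls of AGR2 under sgCDK1 in BxPC-3 (adjusted p = 0.0926), sgKLF5 in SUIT-2 (adjusted p = 0.0501), labelled sgRPA3 in CFPAC-1 (adjusted p = 0.059) and sgRPA3 in T3M-4 (adjusted p = 0.0521), and those of TFF2 under sgKLF5 in SUIT-2 (adjusted p = 0.216) and SPINK1 under labelled sgRPA3 (adjusted p = 0.0889). It added TFF2 under sgKLF5 in AsPC-1 experiment 1 (-2.53), AGR3 under sgKLF5 in T3M-4 experiment 1 (1.11, adjusted p = 0.0231), SPINK1 under sgRUVBL1 in CFPAC-1 (0.47, adjusted p = 0.0199) and TFF2 under sgRUVBL1 in T3M-4 (0.47, adjusted p = 0.0483). No paired analysis was possible for CB-6644 against DMSO in AsPC-1 and T3M-4, because the DMSO libraries carry no replicate numbers. Leaving out 1 library at a time gave 15 to 18 lower and 10 to 12 higher after KLF5 knockout, 5 to 7 and 6 to 10 after RUVBL1 or RUVBL2 knockout, 0 to 1 and 6 to 10 after CDK1 or RPA3 knockout, 2 to 4 and 0 to 1 with CB-6644 in empty-vector cells, 1 to 3 and 0 to 4 in variant cells, 5 to 6 and 5 to 7 in non-pancreatic lines and 1 to 3 and 7 to 8 for treated variant against treated empty-vector cells. With fewer than 4 libraries in many groups and no counts, small differences of genes near 1 TPM were not detectable.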

Other observations

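The genes on either side of the AGR2 and AGR3 pair and of the trefoil cluster were looked at after their values were seen, so they are given as values only. TSPAN13, a tetraspanin 7.275 kb from AGR2, rose in 5 of 8 sgKLF5 comparisons: from 8.76 to 25.5 TPM in AsPC-1 experiment 1 (1.43, limma adjusted p = 4.54e-05), from 3.25 to 16.9 in AsPC-1 experiment 3 (2.07, adjusted p = 1.76e-09), from 92.1 to 187 in T3M-4 experiment 2 (1.01, adjusted p = 1.32e-09) and by 0.69 and 0.36 in BxPC-3. TSPAN13 also rose after RUVBL1 knockout in AsPC-1 by 0.66 and 0.97, where AGR2 fell, and after CHD4 knockout by 1.25. AHR, the aryl hydrocarbon receptor on the other side of the pair, rose in 4 of 8 sgKLF5 comparisons, by 0.82 and 0.55 in AsPC-1, 1.48 in T3M-4 experiment 2 and 0.72 in BxPC-3 experiment 2. TMPRSS3, a serine protease 5.352 kb from TFF1, fell in 4 sgKLF5 comparisons, with log2 differences of -0.98 in AsPC-1 experiment 3, -0.73 in CFPAC-1, -0.71 in BxPC-3 experiment 2 and -0.47 in T3M-4 experiment 2. ABCG1, on the other side of the cluster, fell in 1 of 8, from 6.51 to 3.85 TPM in CFPAC-1 (-0.63, adjusted p = 0.00691).

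Over the mean control levels of the 9 lines, the 3 genes most like each member among 14395 were found by Pearson r. These r describe 9 lines measured in separately normalized tables. They were GPX2 (0.983), PRSS22 (0.976) and EREG (0.976) for AGR2, APOBEC1 (0.989), SLC39A5 (0.98) and SLCO2B1 (0.979) for REG4, CYTIP (0.975), ATP1B1 (0.971) and CX3CL1 (0.953) for AGR3, and TXK (0.972), CTNNA1 (0.966) and LASP1 (0.954) for TFF2. For TFF1 they were ADGRF4, NHLRC1 and BARX2 (0.95 to 0.964), for TFF3 MIPEP, CDK8 and SMG1 (0.902 to 0.937), for LYZ TESC, BCO1 and KCNF1 (0.901 to 0.957), and for SPINK1 SP5, LSMEM1 and IFRD1 (0.927 to 0.963). For VSIG2 they were PTPRF, the gastric claudin CLDN18 and IKZF3 (0.954 to 0.965), and for CTSE UNC93A, LOC105377650 and FDFT1 (0.942 to 0.974). None of the members was among the genes most like another.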
